A study of Caenorhabditis elegans with 12 samples.

Results

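The interaction of glucose-rich diets and *lpin-1* RNAi is, for each gene, the glucose effect of *lpin-1(RNAi)* worms minus that of *control(RNAi)* worms (WT), on the log2 scale. It asks which genes respond to glucose differently once *lpin-1* is knocked down. A positive value means that glucose raised the gene more, or lowered it less, in *lpin-1(RNAi)* worms than in WT, and a negative value means the reverse. All 12 of the 12 RNA libraries of the study entered the comparison, and 14697 of the 46778 genes in the tables had enough counts to be tested. RNA came from whole adult worms of N2, the standard laboratory wild-type strain of *Caenorhabditis elegans*. The 4 groups were *lpin-1(RNAi)* worms with 2% added glucose (Glc-lpin1), *lpin-1(RNAi)* worms without added glucose (Con-lpin1), WT with 2% added glucose (Glc-ctrl) and WT without added glucose (Con-ctrl), with 3 replicates each. All 4 groups were fed from the egg stage on bacteria making double-stranded RNA under 10 mM IPTG, against *lpin-1* (written lpn-1 in the sample labels) or as the control, and all were moved at day 1 of adulthood to plates with 10 µM FUDR, which keeps progeny from hatching. RNAi lowers a transcript without removing it, and feeding reaches most tissues of N2 but neurons only weakly. RNA was taken from whole worms, so each level is an average over the tissues of whole worms.

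Lipin is a phosphatidic acid phosphatase. It makes diacylglycerol, the shared precursor of stored fat and of membrane phospholipids, and in mammals it also acts in the nucleus as a coregulator of genes for fatty acid oxidation. In worms, added glucose is stored in part as fat, changes the balance of saturated and unsaturated fatty acids and shortens life. The intestine of the worm stores fat and secretes yolk, and the epidermis secretes the collagen cuticle.

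The target itself stayed lower in the knockdown on both diets. *lpin-1* (chromosome V, 13650262 to 13654129 in WBcel235) had 108, 105 and 122 CPM with glucose and 88.2, 94.7 and 84.8 without it in *lpin-1(RNAi)* worms, against 182, 161 and 151 CPM with glucose and 167, 163 and 144 without it in WT, where CPM is the count scaled to libraries of equal size and each trio runs from replicate 1 to replicate 3. The *lpin-1(RNAi)* libraries did not overlap the WT libraries on either diet. The glucose effects on *lpin-1* differed by 0.26 (SE 0.14, adjusted p = 0.59) between the RNAi conditions in the quasi-likelihood test of edgeR (Benjamini-Hochberg adjusted), which did not pass. Totals ran from 16546059 to 31534301 counts per library, and the scaling factors were 1.03 to 1.17 in *lpin-1(RNAi)* libraries and 0.903 to 0.968 in WT libraries. The labels do not say whether replicates were separate cultures, so the p-values measure the spread between these libraries, which may be partly technical.

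The interaction was called for 174 genes, of which 68.4% were positive (0.81% of the genes tested) and 55 were negative (0.374%). A gene was called at an adjusted p under 0.05 in the quasi-likelihood test of edgeR, adjusted by Benjamini-Hochberg over all tested genes, and an absolute log2 difference above 1. By the adjusted p alone, 154 genes were positive (1.05%) and 82 negative (0.558%), and 1461 genes had an unadjusted p under 0.05. Over all tested genes the median interaction was 0.03 on the log2 scale, with 55.1% of genes above 0. These counts rested heavily on replicates 1 and 3. They were 15 positive and 7 negative calls without replicate 1 in every group, and 1 and 2 without replicate 3, against 145 and 69 without replicate 2. Of the 88 genes that were chosen for description and passed the adjusted p, 52 kept it with any single library left out. Without the single library Glc-lpin1 replicate 1 there were 74 positive calls, without Con-lpin1 replicate 2 there were 129 negative calls, and without Glc-ctrl replicate 3 there were 33.

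The plot of the glucose effects shows how the called genes came to differ. By the same thresholds, glucose in *lpin-1(RNAi)* worms raised 397 genes (2.7%) and lowered 420 (2.86%), and glucose in WT raised 199 (1.35%) and lowered 262 (1.78%). Of the positive genes, 63 were called up with glucose in *lpin-1(RNAi)* worms and not called in WT, 24 were called down in WT and not called in *lpin-1(RNAi)* worms, and 3 were called in opposite directions. A further 7 were called up in both, 4 down in both and 18 in neither. Of the 55 negative genes, 31 were called down with glucose in *lpin-1(RNAi)* worms and not called in WT, 14 were called up in WT and not called in *lpin-1(RNAi)* worms, 2 were called down in both, 1 up in both and 7 in neither. These sorted counts describe the calls, since the glucose effects and their difference come from the same libraries. The levels on control diets also differed between the RNAi conditions. The median log2 difference of *lpin-1(RNAi)* worms from WT was −1.24 with glucose and −2.61 without it for the positive genes, and 0.94 and 2.77 for the 55 negative genes. On the same scale the median over all tested genes was 0.00 on control diets. The interaction and both RNAi differences share their libraries, so the narrower gap on glucose-rich diets is the interaction seen from the other side.

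**Figure D1:**
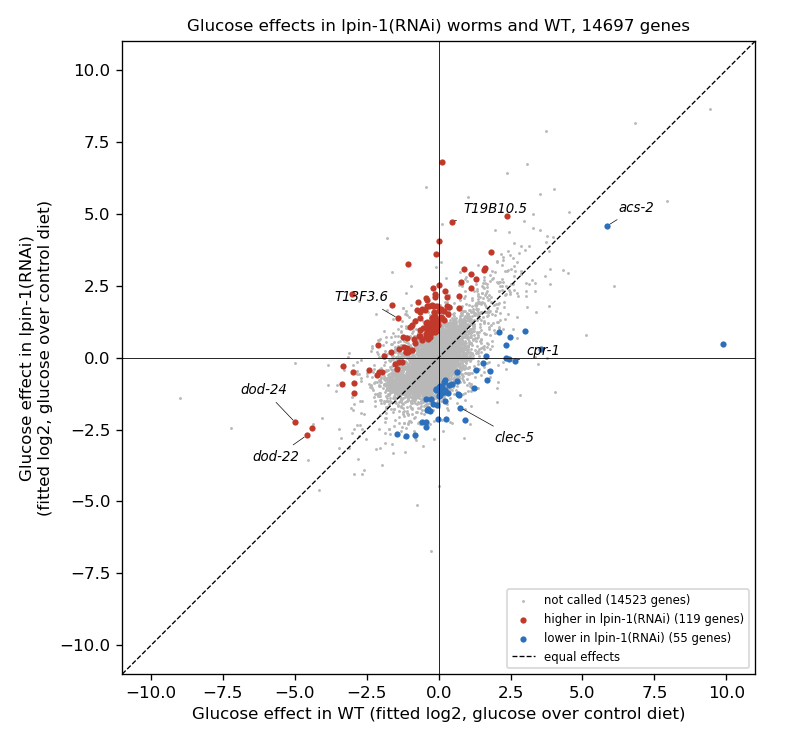
Effect of glucose in *lpin-1(RNAi)* worms (y axis) against the effect in WT (x axis), both as fitted log2 of glucose-rich over control diets, for 14697 genes. Red points are genes with a positive called interaction and blue points the 55 with a negative one, grey points are not called, and the dashed line marks equal effects. Most red points lie above 0 near the vertical axis or left of it, and most blue points lie below the line near the axes.

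The first pattern held genes that glucose raised in *lpin-1(RNAi)* worms with less change in WT. The lowest adjusted p among them was that of *T19B10.5* (WBGene00011833, chromosome V, 11234650 to 11237427), a gene with no common name. It had 122, 58.8 and 84.6 CPM with glucose and 3.13, 3.20 and 3.77 without it in *lpin-1(RNAi)* worms, against 14.5, 14 and 17.8 CPM with glucose and 9.84, 11.3 and 12.7 without it in WT. The *lpin-1(RNAi)* worms had the highest levels of the 4 groups with glucose and the lowest without it, and no group overlapped another. The interaction was 4.27 (SE 0.32, adjusted p = 5.5e-05) in edgeR's quasi-likelihood test, from a glucose effect of 4.72 in *lpin-1(RNAi)* worms and 0.45 in WT, and it passed in all 23 alternative settings tried. *F46F2.3* (chromosome X, 15259579 to 15260287) had 131, 57.9 and 69 CPM with glucose and 7.38, 6.85 and 7.07 without it in *lpin-1(RNAi)* worms, against 431, 428 and 387 CPM with glucose and 424, 457 and 434 without it in WT. Here the WT diets overlapped and the *lpin-1(RNAi)* diets did not, and glucose brought the *lpin-1(RNAi)* level only part of the way to WT. Its interaction was 3.67 (SE 0.32, adjusted p = 1.4e-04) in the same edgeR test. *Y48E1B.8* had a glucose effect of 4.06 in *lpin-1(RNAi)* worms and 0.01 in WT (interaction 4.05, adjusted p = 0.0034 by edgeR), though its *lpin-1(RNAi)* levels on control diets were no more than 0.155 CPM.

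Cuticle collagens had more positive calls than any other family listed. Cuticle collagens are secreted by the epidermis and assembled into the layers of the cuticle at each molt, and a few of them mark the adult stage. Of 156 annotated *col* genes, 111 were tested, and 21 of them (18.9%, against 0.81% of all tested genes) were positive and called while 0 were negative and called. The median interaction of the 111 was 1.32 on the log2 scale, against 0.03 over all tested genes, and 102 of them were above 0. The median was 0.75 without replicate 1 in every group, 1.74 without replicate 2 and 1.04 without replicate 3. With glucose in *lpin-1(RNAi)* worms 21 *col* genes were called up and 0 down, and in WT 1 was called up and 3 down. The median glucose effect of the 111 was 0.54 in *lpin-1(RNAi)* worms and −0.51 in WT, so the family interaction drew on both conditions. In 9 of the 21 called collagens reads were divided with similar genes in at least 3 libraries, so their single values are uncertain. The other 12 had divided reads in fewer than 3 libraries or in none.

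Among the collagens, *col-19*, which is made in the adult cuticle, had 1069, 810.4 and 884 CPM with glucose and 325, 442 and 345 without it in *lpin-1(RNAi)* worms, against 2124, 2626 and 2239 CPM with glucose and 2428, 2631 and 2143 without it in WT. The *lpin-1(RNAi)* diets did not overlap, whereas in WT the diets did. Its interaction was 1.36 (SE 0.20, adjusted p = 0.0037) in edgeR's quasi-likelihood test. *col-124* had 906, 631 and 664 CPM with glucose and 130.0, 232 and 165 without it in *lpin-1(RNAi)* worms, against 3071, 3617 and 2970.0 CPM with glucose and 4423, 4725 and 3866 without it in WT, and its interaction was 2.49 (SE 0.27, adjusted p = 6.5e-04) by edgeR, with divided reads in 4 libraries. The neighbours *col-178* and *col-179* on chromosome X (11199455 to 11202485) had interactions of 1.22 and 2.43, and *col-93*, also an abundant collagen, 2.65, with divided reads in all 12 libraries for each of the 3. *col-158* reached 2.52 at no more than 1.42 CPM in *lpin-1(RNAi)* worms, and *col-62*, with divided reads, 1.32, but they kept an adjusted p under 0.05 in only 10 of 22 and 8 of 23 alternative settings. Every one of these collagens stayed below its WT level on both diets in *lpin-1(RNAi)* worms, as group means.

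Library by library the family moved less evenly than these genes. For each library the median over the 111 collagens was taken of log2(CPM + 0.5) minus the gene's mean in WT on control diets. It was −0.45, −0.93 and −0.51 in *lpin-1(RNAi)* libraries with glucose and −0.84, −0.65 and −1.50 on control diets, against −0.47, −0.28 and −0.43 in WT with glucose and 0.27, −0.12 and −0.14 on control diets, in the order of replicates 1 to 3. The *lpin-1(RNAi)* diets overlapped on this measure, because replicate 2 had a lower median with glucose than without. The WT diets did not overlap, and every WT library with glucose lay below every WT library on control diets. Without replicate 3 in every group, 0 collagens were called, without replicate 1, 2 were, and without replicate 2, 31 were. Leaving out 1 library at a time gave 13 to 21 collagens, with 13 without Glc-lpin1 replicate 1, without Con-lpin1 replicate 3 and without Glc-ctrl replicate 1. The summed level of 19 neuron markers, genes of another tissue, was 678 to 724 CPM with glucose and 672 to 735 without it in *lpin-1(RNAi)* worms, against 395 to 419 CPM with glucose and 398 to 448 without it in WT. That of 11 intestine markers was 1182 to 1355 CPM with glucose and 1453 to 1745 without it in *lpin-1(RNAi)* worms, against 2226 to 2739 CPM with glucose and 2694 to 2930.0 without it in WT. The neuron sums overlapped between diets in both RNAi conditions, and the intestine sums were lower with glucose in *lpin-1(RNAi)* worms and overlapped in WT. Single intestine markers went both ways. Against WT on control diets, the knockdown had 3 of the 11 called higher and 4 called lower. On glucose-rich diets these counts were 0 and 4. Within the knockdown, 0 had a called glucose effect. *cpr-1*, which had a called interaction, is among the 11. The intestine sums therefore need not track the amount of that tissue. Any part of the neuron and intestine sums in the collagen values was not tested. In bulk RNA, fewer cells of a type and less RNA per cell cannot be told apart.

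**Figure D2:**
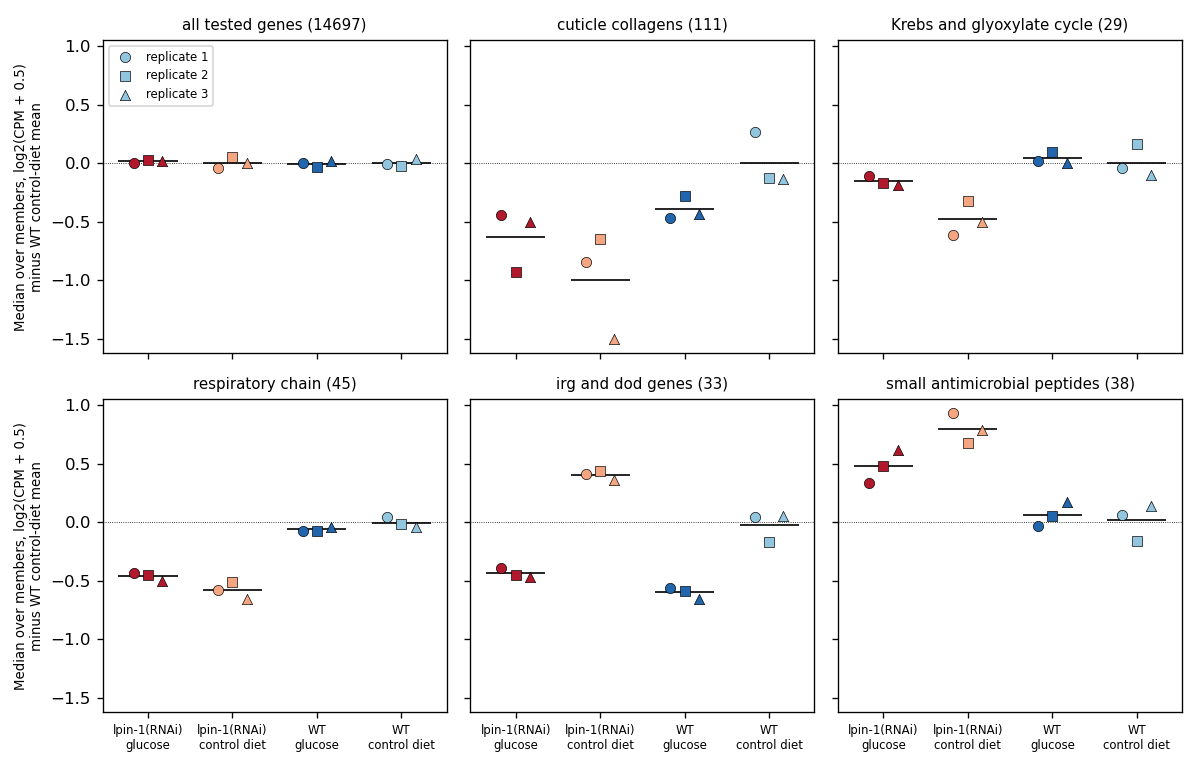
Median over the members of each family of log2(CPM + 0.5) minus the gene's mean over the WT control-diet libraries (y axis), for each of the 12 libraries by group (x axis), with the number of genes in parentheses. Symbols give the replicate number and lines the group means. Collagens of *lpin-1(RNAi)* worms overlap between diets because of replicate 2, whereas the respiratory chain and the *irg* and *dod* genes of *lpin-1(RNAi)* worms separate the diets in every library. Collagens of WT are lower with glucose, without overlap of the diets.

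Among the other cuticle, molting and hedgehog-related lists, the called members were positive. Furrow and body shape collagens (*dpy*, *rol*, *sqt*, *bli*), whose mutants change the shape of the animal, had 0 calls among 20, with a median interaction of 0.66 and 17 above 0. Glucose raised 7 of these 20 in *lpin-1(RNAi)* worms and 7 in WT, and *dpy-14*, the most abundant of them, was 3.00 higher with glucose in *lpin-1(RNAi)* worms and 2.37 in WT. *tyr-2*, a tyrosinase-like gene of the molting and matrix list (1 of 43 positive, 0 negative), had 33.6, 30.6 and 28.7 CPM with glucose and 4.75, 7.42 and 6.38 without it in *lpin-1(RNAi)* worms, against 9.07, 10.6 and 9.85 CPM with glucose and 8.01, 8.29 and 9.0 without it in WT. Its level with glucose in *lpin-1(RNAi)* worms was above every other library, with an interaction of 2.10 (SE 0.21, adjusted p = 3.9e-04) in edgeR's test. Hedgehog-related and patched-related genes serve molting and secretion in worms rather than a classical Hedgehog pathway. Among 53 they had 3 positive calls (5.66%, against 0.81% of all tested genes) and 0 negative, with a median of 0.23. *ptr-14* had 72.3, 79.8 and 78.3 CPM with glucose and 28.7, 20.6 and 25.8 without it in *lpin-1(RNAi)* worms, against 28.9, 30.2 and 35.7 CPM with glucose and 29.9, 24.6 and 39.8 without it in WT, and the *lpin-1(RNAi)* libraries with glucose stood above all others. Its interaction was 1.61 (SE 0.23, adjusted p = 0.0034) by edgeR, and those of the hedgehog-related *grd-1* and *grl-4* were 2.12 and 1.11. *grl-4* passed the adjusted p in 15 of 23 alternatives. The 3 positive calls of this list became 0 without replicate 1 in every group and 0 without replicate 3, and stayed 3 without replicate 2. *ptr-11* passed by the adjusted p alone at 0.90, adjusted p = 0.03 in the edgeR test, and in 7 of 23 alternatives. The hedgehog-related median was 0.14 without replicate 1, and that of the body shape collagens 1.40. Cuticlins (0 of 22) and astacin metalloproteases (0 of 23) had no called member.

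Single genes of methyl donor, glycerol and sugar metabolism were also positive, with 1 call in each of their lists. The call was 3.03% of the triacylglycerol and phosphatidylcholine list, 3.45% of the sugar and glycerol list and 3.85% of the glycolysis and gluconeogenesis list. Over all tested genes 0.81% were positive and called. *sams-1*, the S-adenosylmethionine synthetase that supplies methyl groups for phosphatidylcholine, had 247, 191 and 225 CPM with glucose and 93.8, 122 and 105 without it in *lpin-1(RNAi)* worms, against 388, 415 and 375 CPM with glucose and 436, 458 and 439.5 without it in WT. Glucose raised it in *lpin-1(RNAi)* worms, in which it stayed below every WT library. The interaction was 1.23 (SE 0.16, adjusted p = 0.0014) in edgeR's test, and that of *pmt-2*, a phosphoethanolamine methyltransferase of the same route, was 0.71, adjusted p = 0.022 by edgeR, past the adjusted p alone. The list of triacylglycerol and phosphatidylcholine synthesis genes had 1 positive call and 0 negative among 33, with a median of 0.08. *aqp-7*, an aquaglyceroporin, had 95.7, 90.5 and 80.5 CPM with glucose and 39, 51.6 and 38.7 without it in *lpin-1(RNAi)* worms, against 102, 145 and 109.8 CPM with glucose and 172, 213 and 142 without it in WT, with an interaction of 1.60 (SE 0.24, adjusted p = 0.0039) by edgeR, the only call among 29 genes of trehalose, glycogen, sugar transport and glycerol (median 0.15). *pck-1*, the phosphoenolpyruvate carboxykinase of gluconeogenesis, had 46.1, 44.6 and 41.2 CPM with glucose and 24, 29.5 and 20.2 without it in *lpin-1(RNAi)* worms, against 34.8, 38.3 and 48.4 CPM with glucose and 50.7, 60.0 and 52.9 without it in WT. Its level was higher with glucose in every *lpin-1(RNAi)* library and lower with glucose in every WT library, although neither glucose effect was called (0.83 and −0.43), and the interaction was 1.26 (SE 0.20, adjusted p = 0.0062) by edgeR. *vit-3*, a yolk protein gene with divided reads in all libraries, was 1.79 higher with glucose in *lpin-1(RNAi)* worms and 0.30 in WT, an interaction of 1.49, adjusted p = 0.042 by edgeR that passed in 11 of 23 alternatives, and 1 of 6 vitellogenins (16.7%) was called. The *pud* genes, abundant in WT and named for proteins that increase in *daf-2* mutants, had 2 positive calls among 6 (33.3%). Both called members, *pud-1.2* (2.27) and a copy of *pud-2.2* (2.65), share reads with near-identical copies, and in *lpin-1(RNAi)* worms on either diet they stayed at or below 15.2 CPM, against at least 462 CPM in WT.

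Enzymes of fatty acid oxidation had calls in both directions. Of 64 tested, 2 were positive and called (3.12%) and 1 was negative and called (1.56%), with a median of 0.14. Over all tested genes these shares were 0.81% and 0.374%. The 2 positive calls became 1 without Glc-lpin1 replicate 1, Con-lpin1 replicate 1 or Glc-ctrl replicate 1. They became 4 without Con-lpin1 replicate 2 or Con-ctrl replicate 1. *cpt-5*, a carnitine palmitoyltransferase, was called up with glucose in both conditions, with 34.6, 31.2 and 31.7 CPM with glucose and 2.92, 5.46 and 3.13 without it in *lpin-1(RNAi)* worms, against 46.8, 44.1 and 56.2 CPM with glucose and 14.9, 15.9 and 18.8 without it in WT. The glucose levels were closer to each other than the control-diet levels, and the interaction was 1.50 (SE 0.27, adjusted p = 0.012) in edgeR's test. *acs-2*, an acyl-CoA synthetase of mitochondrial β-oxidation, went the other way. It had 63, 60.7 and 63.7 CPM with glucose and 2.98, 2.81 and 1.86 without it in *lpin-1(RNAi)* worms, against 102, 101 and 115 CPM with glucose and 2.41, 1.64 and 1.51 without it in WT, called up by 4.58 in *lpin-1(RNAi)* worms and 5.86 in WT, with an interaction of −1.28 (SE 0.23, adjusted p = 0.013) by edgeR. *acox-1.1*, a peroxisomal acyl-CoA oxidase, passed by the adjusted p alone (0.99, adjusted p = 0.0039 by edgeR), as did *ech-6*, an enoyl-CoA hydratase (0.61, adjusted p = 0.016). *lips-10*, a lipase-related gene, had 87.5, 92.6 and 94.2 CPM with glucose and 10.8, 11.2 and 9.88 without it in *lpin-1(RNAi)* worms, against 21.2, 28.1 and 33.4 CPM with glucose and 8.20, 8.98 and 9.92 without it in WT. With glucose it was higher in *lpin-1(RNAi)* worms than in any other library, and its interaction was 1.49 (SE 0.20, adjusted p = 0.0019) by edgeR, the only call among 16 lipase genes (6.25%).

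Detoxification and immune genes contributed single members to the first pattern. *gst-4*, a glutathione S-transferase widely used as a reporter of the oxidative stress response, had 31.3, 26.9 and 26.7 CPM with glucose and 9.37, 7.87 and 8.61 without it in *lpin-1(RNAi)* worms, against 70.2, 70.6 and 68.9 CPM with glucose and 48.5, 40.2 and 41.1 without it in WT. It was 1.72 higher with glucose in *lpin-1(RNAi)* worms and 0.69 in WT, and its *lpin-1(RNAi)* levels stayed below all WT levels, with an interaction of 1.02 (SE 0.15, adjusted p = 0.0031) in edgeR's test. *cyp-13B1*, a cytochrome P450, was called up in both (4.93 and 2.38, with an interaction of 2.54, adjusted p = 0.0087 by edgeR), and *ugt-32*, a UDP-glycosyltransferase, in *lpin-1(RNAi)* worms (interaction 2.21). Of 60 cytochrome P450 genes 1 was positive and called and 1 negative and called, with a median of −0.10. Each was 1.67% of the list, against 0.81% and 0.374% of all tested genes. *cyp-29A2* (0.72, adjusted p = 0.048 by edgeR) and *cyp-33C7* (−0.84, adjusted p = 0.025 by edgeR) passed by the adjusted p alone, in 7 of 23 and 14 of 23 alternatives. *nlp-33*, an epidermal antimicrobial peptide, had 47.1, 40.7 and 46.3 CPM with glucose and 16.8, 15 and 20.4 without it in *lpin-1(RNAi)* worms, against 41.4, 49.1 and 55.8 CPM with glucose and 59.2, 50.2 and 62.9 without it in WT. It was lowest in *lpin-1(RNAi)* worms without glucose, and its interaction was 1.60 (SE 0.19, adjusted p = 0.001) by edgeR. *spp-12*, a saposin-like gene, had 395, 323 and 349 counts in *lpin-1(RNAi)* libraries with glucose and 4, 4 and 2 on control diets, against 0, 1 and 1 in WT with glucose and 1, 1 and 0 on control diets. It was therefore seen well above the floor of 3 counts with glucose in *lpin-1(RNAi)* worms only, and its interaction of 6.68 is a fitted value that depends on near-empty WT libraries, and it passed in 10 of 22 alternatives. Saposin-like genes had 2 positive calls (8.7%, against 0.81% of all tested genes) and 0 negative among 23. Their median, however, was −0.37 with 8 above 0, and at an unadjusted p under 0.05 they were 2 positive and 6 negative. *srsx-34* (interaction 1.67), with a glucose effect of 1.22 in *lpin-1(RNAi)* worms and −0.46 in WT, was the only call among 56 chemoreceptor genes (1.79%).

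**Figure D3:**
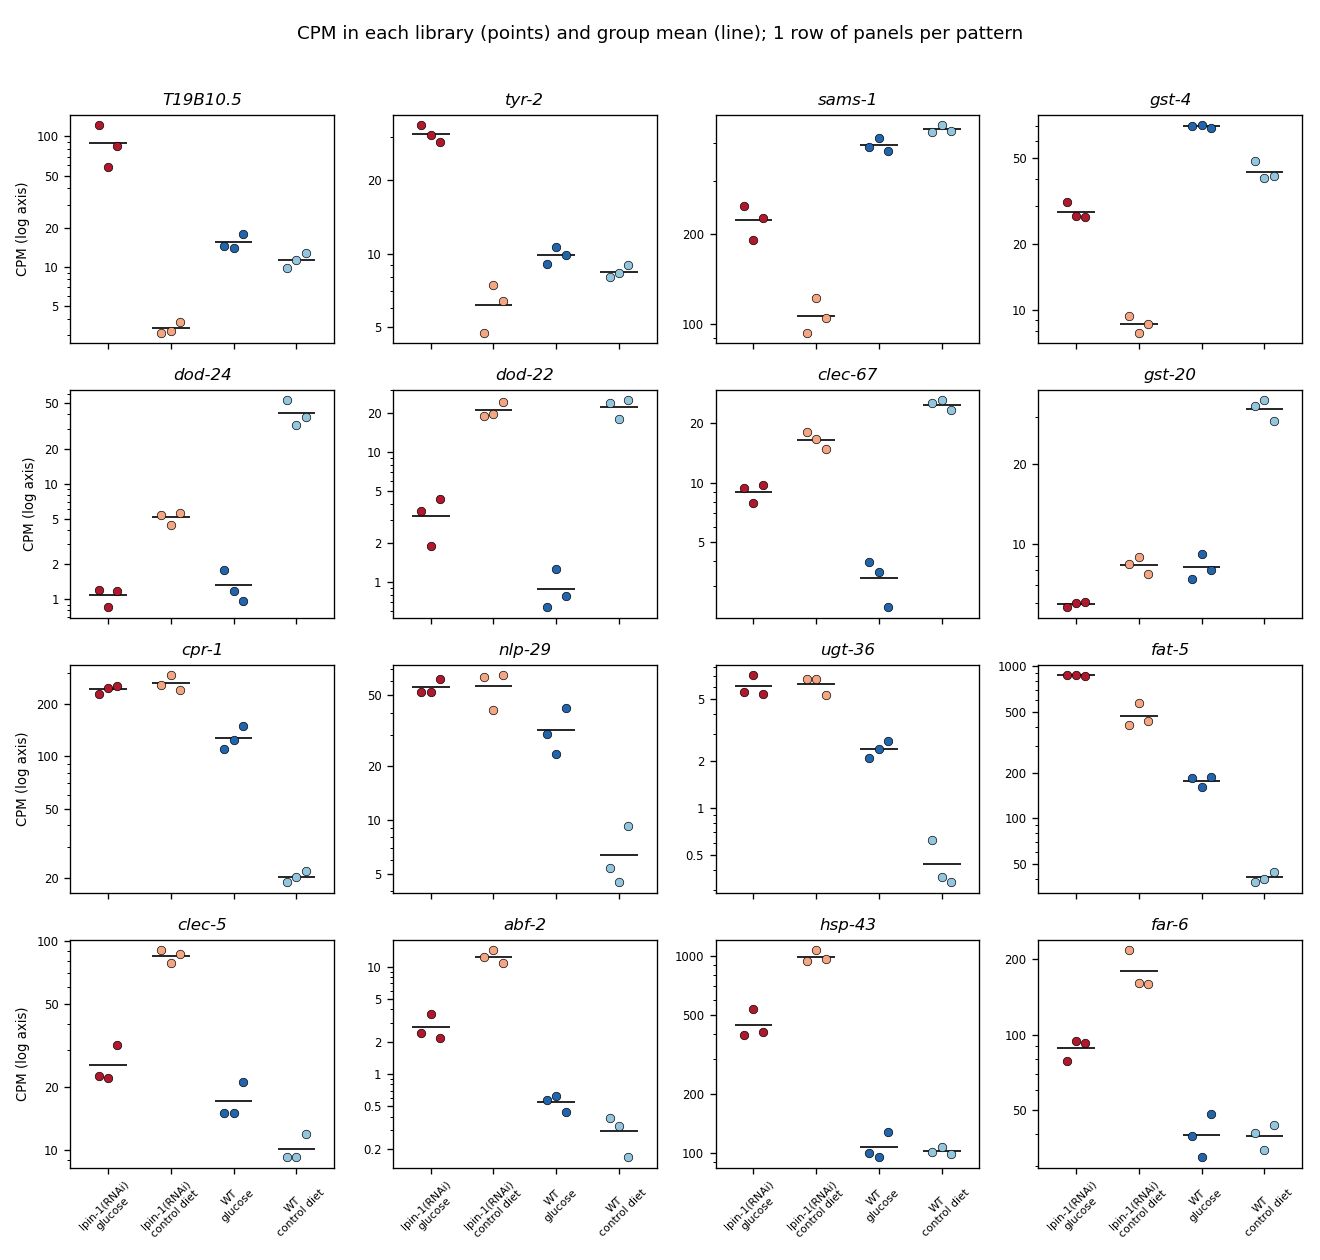
CPM of 16 genes in each library (points, log axis) with group means (lines), for the groups Glc-lpin1, Con-lpin1, Glc-ctrl and Con-ctrl in that order (x axis). Each row of panels shows 1 pattern: genes raised by glucose in *lpin-1(RNAi)* worms, genes lowered by glucose chiefly in WT, genes raised by glucose chiefly in WT, and genes lowered by glucose in *lpin-1(RNAi)* worms. In the top row the WT diets lie closer together than the *lpin-1(RNAi)* diets, though they are apart for *gst-4*. In the third row the *lpin-1(RNAi)* diets lie close together for *cpr-1*, *nlp-29* and *ugt-36*.

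The second pattern held genes that glucose lowered in WT and lowered less, or did not measurably lower, in *lpin-1(RNAi)* worms. The family with most calls here was that of the *irg* (infection response) and *dod* (downstream of DAF-16) genes, which respond to pathogens and to insulin signalling, mostly in the intestine. Of 33 tested, 5 were positive and called (15.2%) and 1 was negative and called (3.03%), against 0.81% and 0.374% of all tested genes. The median was 0.02, near that of all genes. The 5 positive calls became 2 without Glc-lpin1 replicate 1, without Glc-lpin1 replicate 3 and without Con-lpin1 replicate 3, and 3 without Con-lpin1 replicate 1, Glc-ctrl replicates 1 or 3 or Con-ctrl replicates 1 or 3. The negative call was lost with limma-voom, RLE scaling and library totals alone and with 9 of the 12 libraries when left out singly, and 3 members were negative and called with DESeq2, without the filter on low counts, without Con-lpin1 replicate 2 and in a fit blocked on replicate number. With glucose, 11 members were called down in *lpin-1(RNAi)* worms and 14 in WT, and 0 were called up in either. The library medians were −0.39, −0.45 and −0.47 with glucose and 0.41, 0.44 and 0.36 on control diets in *lpin-1(RNAi)* worms, against −0.56, −0.59 and −0.65 and 0.04, −0.17 and 0.05 in WT. The diets did not overlap in either RNAi condition.

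*dod-24* had 1.21, 0.850 and 1.18 CPM with glucose and 5.40, 4.40 and 5.63 without it in *lpin-1(RNAi)* worms, against 1.79, 1.19 and 0.975 CPM with glucose and 52.8, 32.3 and 37.9 without it in WT. The levels with glucose overlapped between the RNAi conditions, and the WT levels without glucose stood far above the rest. Its interaction was 2.74 (SE 0.36, adjusted p = 0.0017) in edgeR's test. *dod-22* had 3.52, 1.90 and 4.36 CPM with glucose and 19, 19.7 and 24.4 without it in *lpin-1(RNAi)* worms, against 0.639, 1.26 and 0.780 CPM with glucose and 24.1, 18.2 and 25.2 without it in WT, where the control-diet levels overlapped and the glucose levels did not, and its interaction was 1.88 (SE 0.41, adjusted p = 0.035) by edgeR, past the adjusted p in 12 of 23 alternatives and with 4 of the 12 libraries when left out singly. Its RNAi conditions thus separated on glucose-rich diets, whereas those of *dod-24* separated on control diets. *dod-17* (1.58) and *F55G11.8* (1.53) resembled *dod-24*, with *lpin-1(RNAi)* levels at or under 4.06 CPM on both diets. These 4 genes lie within 12940106 to 12978343 on chromosome IV. *C17H12.8*, elsewhere on the same chromosome (6818703 to 6820575) and not in the list, had 78 to 107 CPM in the 3 libraries with glucose and 149.9, 125 and 139 without it in *lpin-1(RNAi)* worms, against 18, 17 and 14.1 CPM with glucose and 141, 104.5 and 142 without it in WT. Its WT level with glucose was far below all others, with an interaction of 2.46 (SE 0.21, adjusted p = 1.4e-04) by edgeR.

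C-type lectins are carbohydrate-binding proteins, of which many are secreted in the gut on infection. Among those tested they had 4 positive calls (3.85%) and 1 negative (0.962%), against 0.81% and 0.374% of all tested genes. Their median was −0.01. A pair of the positive calls were copies of *clec-209* with divided reads, named here after their values were seen. The 4 positive calls became 1 without Glc-lpin1 replicate 1, 2 without Glc-lpin1 replicate 3, Glc-ctrl replicate 2 or Con-ctrl replicates 1 or 3, and the negative call became 4 without Con-lpin1 replicate 2. *clec-67* had 9.42, 7.88 and 9.70 CPM with glucose and 18, 16.7 and 14.9 without it in *lpin-1(RNAi)* worms, against 3.96, 3.54 and 2.34 CPM with glucose and 25.2, 26.1 and 23.2 without it in WT. The glucose effect was −0.88 in *lpin-1(RNAi)* worms and −2.93 in WT, an interaction of 2.05 (SE 0.23, adjusted p = 7.6e-04) in edgeR's test. *clec-85* passed by the adjusted p alone (0.97, adjusted p = 0.014 by edgeR). *clec-86* was called in opposite directions, 1.06 in *lpin-1(RNAi)* worms and −1.01 in WT, at no more than 0.879 CPM in the knockdown. The other genes called in opposite directions were *T13F3.6* (1.36 and −1.41) and *Y47D7A.6* (1.82 and −1.61). *T13F3.6* had 5.74, 3.30 and 5.14 CPM with glucose and 1.80, 1.48 and 2.34 without it in *lpin-1(RNAi)* worms, against 46.8, 43.9 and 61.3 CPM with glucose and 152, 85.9 and 165 without it in WT, so that it moved toward the WT level with glucose in *lpin-1(RNAi)* worms and away from its control-diet level in WT, without the RNAi conditions coming to overlap.

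Single genes outside these families had the second pattern too. *cbs-1*, a cystathionine β-synthase, had 22.8, 23.6 and 23.3 CPM with glucose and 18.2, 25.9 and 23.3 without it in *lpin-1(RNAi)* worms, against 25.7, 26.5 and 25.1 CPM with glucose and 99, 99.8 and 91.3 without it in WT. In 9 of the 12 libraries it lay within a narrow band, and only WT on control diets stood apart. The interaction was 1.95 (SE 0.16, adjusted p = 7.4e-05) in edgeR's test. *gst-20* had 5.78, 5.98 and 6.03 CPM with glucose and 8.40, 8.96 and 7.70 without it in *lpin-1(RNAi)* worms, against 7.41, 9.21 and 7.99 CPM with glucose and 33.1, 34.8 and 29 without it in WT, with an interaction of 1.47 (SE 0.17, adjusted p = 8.0e-04) by edgeR, and *gst-13* had one of 1.28, adjusted p = 0.0019 by edgeR. With *gst-4* these made 3 positive calls and 0 negative among 43 glutathione S-transferases (6.98% positive, against 0.81% of all tested genes, median 0.09). *F09C8.1* (1.99, adjusted p = 2.5e-04 by edgeR) had 2.93, 2.72 and 2.81 CPM with glucose and 4.09, 3.41 and 3.83 without it in *lpin-1(RNAi)* worms, against 4.09, 3.54 and 4.14 CPM with glucose and 22.1, 18.6 and 21.8 without it in WT, the same arrangement as *cbs-1*. Further genes of this pattern were *asp-14*, an aspartyl protease (1.26), *ugt-63* (1.44), and *ins-33*, an insulin-like peptide (1.98). *spp-23* (interaction 1.18) came close to it, with a glucose effect of −0.93 in WT that passed the adjusted p and not the fold threshold. *H02F09.3* (2.57) had a glucose effect of −2.12 in WT at no more than 2.22 CPM. *nhr-74*, a nuclear hormone receptor with divided reads in 6 libraries, had at most 3 counts in every *lpin-1(RNAi)* control-diet library, so its 5.22 is a fitted value. It was the only call among 187 tested receptors (0.535% positive, against 0.81% of all tested genes). The receptors leaned the other way, with a median of −0.13 and 59 above 0 (31.6%, against 55.1% of all tested genes). At an unadjusted p under 0.05, 8 were positive and 22 negative. Of these receptors, *nhr-79* passed by the adjusted p alone in the other direction (−0.96, adjusted p = 0.015 by edgeR). *elo-2*, a palmitate elongase, passed by the adjusted p alone (0.52, adjusted p = 0.016 by edgeR), in 12 of 23 alternatives, with a glucose effect of −0.12 in *lpin-1(RNAi)* worms and −0.65 in WT.

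The third pattern held genes that glucose raised in WT and that stood high on both diets in *lpin-1(RNAi)* worms. *cpr-1* (WBGene00000781, chromosome V, 11975551 to 11976756), a cathepsin B-like protease of the gut, had the lowest adjusted p of all genes. It had 227, 246 and 254 CPM with glucose and 256, 291 and 239.8 without it in *lpin-1(RNAi)* worms, against 109.7, 124 and 148 CPM with glucose and 18.9, 20.2 and 21.9 without it in WT. In *lpin-1(RNAi)* worms the diets overlapped and lay above every WT library, whereas WT with glucose lay above WT on control diets in every library. The interaction was −2.76 (SE 0.16, adjusted p = 6.2e-06) in edgeR's test, with a glucose effect of −0.11 in *lpin-1(RNAi)* worms and 2.64 in WT, and it passed in all 23 alternatives. *nlp-29*, an antimicrobial peptide of the epidermis that is induced by wounding and fungal infection, had 52.2, 52.2 and 61.5 CPM with glucose and 63, 41.5 and 64.8 without it in *lpin-1(RNAi)* worms, against 30.5, 23.3 and 42.3 CPM with glucose and 5.35, 4.47 and 9.25 without it in WT. The *lpin-1(RNAi)* diets overlapped, and the interaction was −2.36 (SE 0.37, adjusted p = 0.0054) by edgeR. *ugt-36* repeated this arrangement at a lower level, with 5.57, 7.10 and 5.42 CPM with glucose and 6.70, 6.76 and 5.31 without it in *lpin-1(RNAi)* worms, against 2.11, 2.38 and 2.68 CPM with glucose and 0.627, 0.363 and 0.335 without it in WT and an interaction of −2.51 (SE 0.32, adjusted p = 0.0014) by edgeR. *adh-1*, an alcohol dehydrogenase, had 114, 142 and 145 CPM with glucose and 101, 112 and 84.2 without it in *lpin-1(RNAi)* worms, against 34.5, 28.5 and 34.8 CPM with glucose and 8.20, 5.31 and 5.73 without it in WT, and an interaction of −1.92 (SE 0.23, adjusted p = 9.3e-04) by edgeR. It overlaps *sodh-2* on the other strand, and how the counting used strand is not given in the sources used here.

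A pair of fatty acid desaturases had the third pattern, 1 of them called. *fat-5*, which desaturates palmitate, had 868, 872 and 867 CPM with glucose and 410.0, 573 and 436 without it in *lpin-1(RNAi)* worms, against 184, 160.1 and 187 CPM with glucose and 38, 40.2 and 44.6 without it in WT. No group overlapped another, and the order was the same in both RNAi conditions, with glucose above control diets. Glucose was associated with 0.88 in *lpin-1(RNAi)* worms and 2.11 in WT on the log2 scale, and the interaction was −1.23 (SE 0.17, adjusted p = 0.0025) in edgeR's test. *fat-7*, which desaturates stearate, had 1854, 1927 and 1788 CPM with glucose and 1204, 1338 and 1400.0 without it in *lpin-1(RNAi)* worms, against 131, 111 and 149 CPM with glucose and 50.2, 50.5 and 41.3 without it in WT, and passed by the adjusted p alone with −0.96 (SE 0.16, adjusted p = 0.0086) by edgeR. Of 25 genes of fatty acid synthesis, desaturation and elongation, *fat-5* was the only call (4.0% negative, against 0.374% of all tested genes), and the median was 0.10. *ckb-2*, a choline kinase (−0.93, adjusted p = 0.04 by edgeR), and *nhr-3* (−0.85, adjusted p = 0.021) passed by the adjusted p alone in the same direction, in 12 of 23 and 14 of 23 alternatives. *D2063.1* had at most 3 counts in every WT control-diet library, which makes its −3.25 a fitted value, and *cyp-13A6* (−1.73), *C04A11.5* (−2.44) and *T16G1.7* (−2.27) had few counts and passed the adjusted p in 9 of 22, 9 of 22 and 11 of 23 alternatives. Heat shock and unfolded protein genes had 2 negative calls among 53 (3.77%). Of these, 1 was a copy of *hsp-16.48* whose reads are divided with a near-identical copy. It had 0 counts in WT on control diets, so no value is given for it.

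The fourth pattern held genes that glucose lowered in *lpin-1(RNAi)* worms without a called change in WT. The decrease itself was not called for every gene described here. Many of these genes stood high in *lpin-1(RNAi)* worms without glucose. *clec-5* (chromosome III, 4881888 to 4883606) had 22.6, 22.3 and 31.9 CPM with glucose and 90.5, 78.5 and 86.5 without it in *lpin-1(RNAi)* worms, against 15.1, 15.1 and 21.2 CPM with glucose and 9.26, 9.31 and 12 without it in WT. No group overlapped another, and in WT the level was higher with glucose, so that both conditions entered the difference. The interaction was −2.49 (SE 0.24, adjusted p = 2.5e-04) in edgeR's test, past the thresholds in all 23 alternatives. *abf-2*, an antibacterial factor related peptide, had 2.39, 3.64 and 2.16 CPM with glucose and 12.3, 14.3 and 10.7 without it in *lpin-1(RNAi)* worms, against 0.575, 0.630 and 0.439 CPM with glucose and 0.386, 0.327 and 0.167 without it in WT, and an interaction of −3.10 (SE 0.44, adjusted p = 0.0031) by edgeR. With *nlp-29* and *fip-5*, a fungus-induced peptide gene (−1.99), it made 3 negative calls (7.89%) among 38 small antimicrobial peptides. The 1 positive call was *nlp-33* (2.63%). Over all tested genes these shares were 0.374% and 0.81%. The family median was −0.32, with 13 members above 0. At an unadjusted p under 0.05, 14 of the 38 were negative and 3 positive. The 3 negative calls became 6 with DESeq2 and without Con-lpin1 replicate 2, and 5 in a fit blocked on replicate number and without the filter on low counts. The library medians of these peptides were 0.34, 0.48 and 0.62 with glucose and 0.93, 0.68 and 0.79 on control diets in *lpin-1(RNAi)* worms, against −0.03, 0.06 and 0.17 and 0.07, −0.15 and 0.14 in WT. The *lpin-1(RNAi)* diets did not overlap, and the WT diets did.

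*hsp-43*, a small heat shock protein, was the most abundant gene of the fourth pattern, with 398, 536 and 409 CPM with glucose and 935, 1068 and 968 without it in *lpin-1(RNAi)* worms, against 100.4, 95.5 and 128 CPM with glucose and 102, 108 and 99.7 without it in WT. Both *lpin-1(RNAi)* groups lay above all WT libraries, and the interaction was −1.21 (SE 0.19, adjusted p = 0.0045) in edgeR's test. *tth-1*, a thymosin β protein that binds actin, had 69.9, 88 and 83.2 CPM with glucose and 158, 156 and 151 without it in *lpin-1(RNAi)* worms, against 26.3, 24.5 and 30.5 CPM with glucose and 22, 19.6 and 21.8 without it in WT, and *valv-1* had 19.6, 20.1 and 19.9 CPM with glucose and 67.6, 58.5 and 59.8 without it in *lpin-1(RNAi)* worms, against 5.05, 4.17 and 5.85 CPM with glucose and 5.50, 4.43 and 5.57 without it in WT. Their interactions were −1.30 (adjusted p = 7.6e-04) and −1.59 (adjusted p = 8.0e-04) by edgeR, and in both genes the WT libraries of both diets were below all *lpin-1(RNAi)* libraries. *E04D5.4* was far higher in the knockdown on both diets, with 47, 60.4 and 46.8 CPM with glucose and 304, 171 and 204 without it in *lpin-1(RNAi)* worms, against 1.34, 0.875 and 1.66 CPM with glucose and 0.868, 1.16 and 1.05 without it in WT and an interaction of −2.41 (SE 0.42, adjusted p = 0.01) by edgeR. Lipid binding proteins had 2 negative calls (12.5%, against 0.374% of all tested genes) and 0 positive among 16, with a median of −0.15. These calls, *far-6* and *far-5*, passed the adjusted p in 15 of 23 and 17 of 23 alternatives. They passed it with 6 and 8 of the 12 libraries when left out singly. Of these fatty acid and retinol binding proteins, *far-6* had 78.7, 94.2 and 93 CPM with glucose and 218, 162 and 159.6 without it in *lpin-1(RNAi)* worms, against 39.3, 32.4 and 48.1 CPM with glucose and 40.5, 34.8 and 43.6 without it in WT, with an interaction of −1.03 (SE 0.22, adjusted p = 0.034) by edgeR. *far-5* differed in that *lpin-1(RNAi)* worms without glucose were near WT, with 2.55, 2.69 and 2.57 CPM with glucose and 11.7, 7.51 and 9.24 without it in *lpin-1(RNAi)* worms, against 9.96, 9.31 and 11.8 CPM with glucose and 11.4, 9.38 and 17.2 without it in WT, so that *lpin-1(RNAi)* worms with glucose were the group that stood apart, at an interaction of −1.57 (SE 0.31, adjusted p = 0.023) by edgeR.

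*ins-7*, an insulin-like peptide that activates the DAF-2 receptor, had 0.837, 0.883 and 1.22 CPM with glucose and 5.58, 2.87 and 4.52 without it in *lpin-1(RNAi)* worms, against 0.767, 0.875 and 1.22 CPM with glucose and 1.01, 1.02 and 0.879 without it in WT. Only *lpin-1(RNAi)* worms without glucose stood above the rest, and the interaction was −2.12 (SE 0.42, adjusted p = 0.021) in edgeR's test. *cpr-4*, a cathepsin B-like protease that is secreted by gut cells, had 92.4, 122 and 161 CPM with glucose and 350.1, 297 and 263 without it in *lpin-1(RNAi)* worms, against 381, 321 and 526 CPM with glucose and 265, 236 and 272 without it in WT. The control-diet levels overlapped, so *cpr-4* did not stand high in *lpin-1(RNAi)* worms without glucose. In WT it was higher with glucose, without overlap of the diets. It was lowest with glucose in *lpin-1(RNAi)* worms, and the interaction was −1.94 (SE 0.29, adjusted p = 0.0037) by edgeR. With *cpr-1* it made 2 negative calls (9.52%) against 1 positive (4.76%), *asp-14*, among 21 gut proteases. Over all tested genes these shares were 0.374% and 0.81%. Transthyretin-related proteins had 2 negative calls (4.0%, against 0.374% of all tested genes) and 0 positive among 50. The called members were *ttr-26* (−1.39) and *ttr-33* (−1.19, divided reads, past the adjusted p in 12 of 23 alternatives). For *ttr-26* neither glucose effect was called. *ttr-18* passed by the adjusted p alone in the positive direction (0.85, adjusted p = 0.0044 by edgeR, in 21 of 23 alternatives), and 12 of 50 members were above 0 (median −0.28). *oac-53* (−1.97, past the adjusted p in 10 of 22 alternatives) and a copy of *his-9* with divided reads (−1.35) were the only calls among 19 *oac* (5.26%) and 53 histone genes (1.89%). *bus-18*, whose mutants resist swelling by bacteria, had glucose effects of −1.06 in *lpin-1(RNAi)* worms and 1.23 in WT, of which the second was not called, and its interaction of −2.29 passed in 11 of 23 alternatives.

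**Figure D4:**
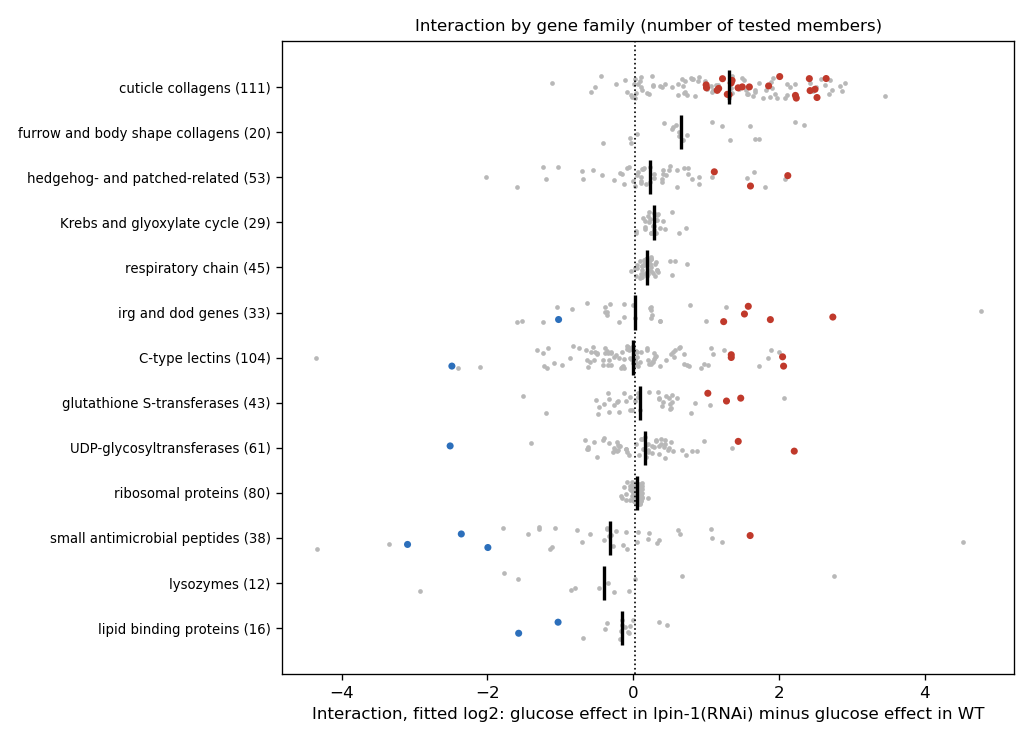
Interaction of every tested member (points) of 13 families on the log2 scale (x axis), with the family median (black bar) and the median of all tested genes (dotted line). Red and blue points are positive and negative calls. Collagens spread to the right of the dotted line with 21 red points and 0 blue, the Krebs cycle and respiratory chain sit just right of it without calls, and ribosomal proteins lie on it.

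Energy metabolism moved by small amounts and in nearly uniform direction. Of 29 genes of the Krebs and glyoxylate cycle, 29 had a positive interaction, with a median of 0.28, yet 0 were called by either rule and 8 had an unadjusted p under 0.05. Without replicate 1 the medians of the cycle and the respiratory chain were 0.16 and 0.12. In the respiratory chain 44 of 45 were positive (median 0.19), and *gas-1*, a subunit of complex I, passed by the adjusted p alone with 0.58 (SE 0.10, adjusted p = 0.009) in edgeR's test. *gas-1* had 86.8, 90.8 and 88 CPM with glucose and 68.1, 74.2 and 69 without it in *lpin-1(RNAi)* worms, against 121, 127 and 131 CPM with glucose and 149, 150.3 and 150.0 without it in WT, and no group overlapped another. In glycolysis and gluconeogenesis 23 of 26 were positive (median 0.23), with *pck-1* the only call. *aco-2*, the mitochondrial aconitase and the most abundant of the cycle genes, had an interaction of 0.30, adjusted p = 0.76 by edgeR. The library medians of the cycle were −0.11, −0.17 and −0.19 with glucose and −0.61, −0.32 and −0.50 on control diets in *lpin-1(RNAi)* worms, against 0.02, 0.10 and 0.00 and −0.04, 0.16 and −0.10 in WT, so the *lpin-1(RNAi)* diets separated and the WT diets overlapped. Those of the respiratory chain were −0.44, −0.45 and −0.50 and −0.57, −0.51 and −0.65 in *lpin-1(RNAi)* worms, against −0.07, −0.07 and −0.04 and 0.04, −0.01 and −0.04 in WT. Genes of one pathway vary together across libraries, so the number of genes on one side does not count independent events.

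Many families showed no called difference in their response to glucose. Over all tested genes only 0.81% were positive and called and 0.374% negative and called. Lists of these sizes would hold few or no calls at those shares. Cytosolic ribosomal proteins had 0 calls among 80 with a median of 0.05, and proteasome subunits 0 among 33 with a median of 0.00. F-box genes (0 of 237), MATH and BTB genes (0 of 69), *pals* genes (0 of 21), chitinase-like genes (0 of 12), and superoxide dismutases, catalases and metallothioneins (0 of 12) had no call either. Lysozymes had 0 calls among 12, although 5 were negative and 1 positive at an unadjusted p under 0.05 (median −0.41, which was −0.68 without replicate 1, −0.14 without replicate 2 and −0.71 without replicate 3). *lys-1*, the most abundant of them, had 289, 292 and 348 CPM with glucose and 751, 559 and 594 without it in *lpin-1(RNAi)* worms, against 284, 281 and 357 CPM with glucose and 575, 559.9 and 679 without it in WT. It fell with glucose by 1.04 on the log2 scale in *lpin-1(RNAi)* worms, a call, and its effect of −0.98 in WT lay just under the fold threshold, so that the interaction was −0.06 (SE 0.19, adjusted p = 1) in edgeR's test. Eggshell and oocyte genes (0 of 37), muscle genes (0 of 34) and neuron markers (0 of 19) had medians of 0.10, 0.32 and 0.14. Sperm genes had 0 calls among 70 but a median of 0.47, with 64 above 0 (median 0.23 without replicate 1 and 0.86 without replicate 2), and their summed level was 391 to 559.7 CPM with glucose and 545 to 956 without it in *lpin-1(RNAi)* worms, against 284 to 497 CPM with glucose and 419 to 890.2 without it in WT. A difference that was not called was not detectable against the replicate spread at this depth, and may still exist.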

How the data were processed

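RNA of whole worms was sequenced in 12 libraries, 3 in each of 4 groups taken from the sample labels. The deposited values are expected counts of reads for each gene and library, not normalized, in which reads matching several genes are divided among them. The submitters' processing notes name STAR 2.7.0e, RSEM 1.3.1, DESeq2 1.22.2 and the build WBcel235 (ce11), with no role or order. Expected counts were rounded to whole numbers, and genes were filtered (minimum count 10), scaled by TMM and fitted in 1 quasi-likelihood model of the 4 groups with edgeR 4.0.16 in R 4.3.3 (prior count 0.125, 8 residual degrees of freedom). P-values were adjusted by Benjamini-Hochberg over all tested genes, and the test was tried on simulated counts for 14535 genes with the interaction removed except for a set changed by known amounts, where it called 66% of 97 genes changed by 1.5 on the log2 scale and 78.8% of 99 changed by 2, with 4 of 146 calls among unchanged genes. The simulated libraries were drawn independently from the fitted model, without the deviation that same-numbered libraries shared. These rates may therefore not hold for the real libraries. Alternatives were DESeq2 1.42.0, limma-voom (limma 3.58.1), RLE scaling, library totals alone, no filter, a prior count of 2, at least 10 counts in all 12 libraries, the adjusted p alone, a replicate block, and each replicate or library left out.

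The 46 families were defined by gene symbols. Genes described were chosen by rule. Called genes with at least 10 counts in every library of 1 group and fractional counts in fewer than 3 libraries were eligible. Of these, the rule took the 10 largest differences and the 5 lowest adjusted p in each direction. It added up to 4 members per family past the adjusted p, the most abundant member of families with no call, the genes called in opposite directions and *lpin-1*. The families and the rule were chosen with earlier results of these data known. Values named as fitted rest on a group with at most 3 counts in every library. Gene positions are from the WBcel235 annotation. Sequences and tissue-sorted data were not used here.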

Additional observations from a re-analysis of the deposited data

Results flagged for a closer look

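The effect of glucose differed between *lpin-1(RNAi)* worms and WT by the interaction test for 174 genes, 55 of them in the negative direction. Within these, 3 genes were called up with glucose in *lpin-1(RNAi)* worms and down in WT: *Y47D7A.6* with a log2 difference of 3.43, *T13F3.6* with 2.77 and *clec-86* with 2.06.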

How the results depend on the processing

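The 88 genes that the naming rule took and that passed the adjusted p kept the sign of their interaction in each of the 21 to 23 alternatives in which they were fitted, and 52 of them kept an adjusted p under 0.05 with any single library left out. Leaving out libraries moved the counts more than any tool or model did. The negative calls were 101 (0.825% of 12237 genes tested) with DESeq2, 87 (0.414% of 20999) without the filter on low counts, and 0.708% of the 14697 tested genes with the replicate number as a block. The positive calls were 155 with DESeq2, 120 without the filter and 154 with the block. The share of calls that were positive, 68.4%, became 60.5%, 58% and 59.7% in these 3 settings and 49% without Con-lpin1 replicate 2. Limma-voom gave 108 positive and 42 negative calls, RLE scaling 120 and 56, library totals alone 110 and 61, and at least 10 counts in every library 109 and 48. With replicates or libraries left out, positive calls ran from 0.0067% to 0.992% of the genes tested (1 to 145 genes) and negative calls from 0.0134% to 0.878% (2 to 129 genes). Without replicate 3, 1014 genes had an unadjusted p under 0.05, and the cause of the loss was not tested. Same-numbered libraries of different groups deviated together with a correlation of 0.04 to 0.53 over 18 pairs, not above 0.1 in every pair. The mean was 0.22, against −0.11 for libraries of different numbers, and 12 of 12 libraries correlated best with their own number. The main fit did not treat the numbers as pairing, so its p-values include the spread that same-numbered libraries share. The blocked fit called more genes in both directions.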
